A study of Mus musculus with 20 samples.

Results

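The genes described here are 7 cyclins (Ccnd1, Ccnd2, Ccnd3, Ccne1, Ccne2, Ccna2 and Ccnb1), the transcription factor genes Myc and Mycn, and Cdkn1b, the gene of the cyclin-dependent kinase inhibitor p27. They were taken by gene name, and all 10 were found by mouse symbol among the 30265 genes of both count tables. Their transcripts were measured in 20 libraries of 2 experiments that changed the level of Klf5, a zinc-finger transcription factor of the Krüppel-like family. In the first, mouse embryonic stem cells (ESCs, pluripotent cells of the blastocyst, here a line derived from C57BL/6J mice) were grown with LIF, a cytokine that maintains pluripotency, on irradiated fibroblast feeders. Cells overexpressing Klf5 (2 libraries) were set against cells overexpressing green fluorescent protein (GFP, 2 libraries). In the second, single preimplantation embryos at embryonic day 4.5 (E4.5, the late blastocyst) were cultured in KSOM medium with serum albumin under normoxia. Embryos treated with Klf5 siRNA (6 libraries) were set against embryos treated with a scramble siRNA (10 libraries). The labels give the mouse strain of the embryos as C57BL/5J. They name no promoter or vector for the overexpression and give no number of ESC lines or clones. Nothing in them says whether the ESC replicates came from separate cultures. The p-values for ESCs therefore reflect the spread of these 4 libraries alone, and that spread may be technical.

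Cyclins are the regulatory subunits that switch on cyclin-dependent kinases (CDKs) in turn through the cell cycle. D-type cyclins act with Cdk4 and Cdk6 in G1 to inactivate the retinoblastoma family, E-type cyclins act with Cdk2 at the entry into S phase, cyclin A2 acts through S phase and G2, and cyclin B1 with Cdk1 drives mitosis. p27 binds and inhibits cyclin-CDK complexes, and the Myc proteins pair with Max at E-box sequences to raise genes of growth, ribosome production and proliferation. Pluripotent mouse cells are known for a short G1 phase and for high E-type cyclin activity, and Mycn as well as Myc is active in them.

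Library totals were 26775363 to 37482631 counts in ESCs and 14701519 to 24939629 in embryos. Klf5 itself had 942 and 882 CPM (estimated counts relative to the library's total, scaled by the TMM method) in Klf5-overexpressing ESCs, against 80.5 and 70.8 CPM in GFP ESCs. In Klf5 siRNA embryos Klf5 ranged from 80.8 to 543 CPM, against 382 to 592 CPM in scramble embryos, a fitted 2.10-fold decrease (edgeR adjusted p = 0.0273). The library labelled Klf5 siRNA embryo 1 held the 543 CPM, within the scramble range, and a call that is lost without it is marked. Mitochondrial genes took 2.45 to 10.3% of counts in Klf5 siRNA embryos and 4.34 to 18.5% in scramble embryos. Summed trophectoderm markers (12 genes) reached 468 to 2806 CPM in Klf5 siRNA embryos and 2588 to 8705 CPM in scramble embryos. Of the 11 tested 7 were called lower (edgeR adjusted p under 0.05), where 7.74% of all genes were called lower and 12.0% higher. Their median log2 difference was -1.57. Summed primitive endoderm markers reached 242 to 532 CPM in Klf5 siRNA embryos and 448 to 762 CPM in scramble embryos. Of the 11 tested 2 were called lower, and the median log2 difference was -1.51, close to that of the trophectoderm markers. Epiblast and inner cell mass markers reached 766 to 1213 CPM in Klf5 siRNA embryos and 661 to 1042 CPM in scramble embryos. Of the 12 tested 2 were called higher and 1 lower, with a median of -0.31. In ESCs all 12 epiblast and inner cell mass markers had counts in every library, and they summed to 6868 and 6156 CPM in Klf5-overexpressing cells and 5227 and 5462 CPM in GFP cells. In whole embryos fewer cells of a type and less RNA per cell cannot be told apart, and the part of these shifts in the results below was not tested.

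In embryos, 2 of the 10 genes passed the test (edgeR's quasi-likelihood test, Benjamini-Hochberg adjustment over all 12385 genes tested, threshold 0.05). Ccne2 rose 2.90-fold in Klf5 siRNA embryos and Mycn fell 2.99-fold, while the D-type cyclins, Ccne1, Ccna2, Ccnb1, Myc and Cdkn1b did not pass. The background in that comparison was 12.0% of all genes called higher and 7.74% called lower, so 1 of 10 in each direction is near the share among all genes. In ESCs 1 of the 10 passed, Cdkn1b, which was 1.57-fold higher in Klf5-overexpressing cells, where 1.67% of all 15968 genes tested were called higher and 1.11% lower. The median log2 fold change over the 10 genes was 0.29 in embryos and 0.09 in ESCs, beside -0.01 and -0.002 over all genes tested.

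**Figure D1:**
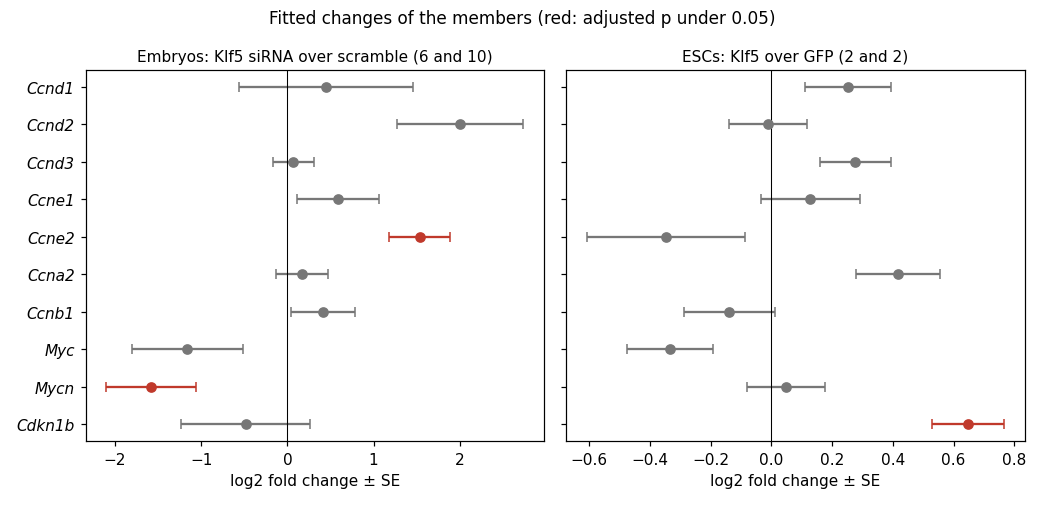
Fitted log2 fold changes of the 10 genes (points) with their standard errors (bars), Klf5 siRNA over scramble embryos on the left and Klf5-overexpressing over GFP ESCs on the right; red points have an adjusted p under 0.05. Ccne2 and Mycn stand on opposite sides of 0 in embryos, and Cdkn1b is the red point in ESCs; the horizontal scales differ, since the standard errors are larger in embryos.

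Upstream sequence is shown for 2 of these 3 genes, Mycn and Cdkn1b, because Klf5 belongs to a family that binds CACCC and GC boxes. The sequences are from RefSeq on GRCm38.p6, and capitals mark matches to CCNCNCCC on either strand, a simple spelling of such boxes. Each runs 5′ to 3′ along its gene's strand, from 200 bases before the RefSeq start to the last base before both the RefSeq and the GENCODE start of the gene, which is 79 bases before the RefSeq start for Mycn and 1 base before it for Cdkn1b.
Mycn, chr12:12941915-12942036, minus strand: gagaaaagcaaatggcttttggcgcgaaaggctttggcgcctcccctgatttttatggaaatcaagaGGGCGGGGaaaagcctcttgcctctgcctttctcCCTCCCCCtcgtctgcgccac
Cdkn1b, chr6:134920201-134920400, plus strand: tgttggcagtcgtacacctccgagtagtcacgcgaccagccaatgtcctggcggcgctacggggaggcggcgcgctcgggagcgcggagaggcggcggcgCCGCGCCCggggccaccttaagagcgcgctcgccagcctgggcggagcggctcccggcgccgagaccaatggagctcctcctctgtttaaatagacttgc
The Mycn stretch held 2 of the 4 matches found in its whole promoter window (250 bases before to 50 after the start), and the Cdkn1b stretch the only match of its window. A match was present in 49.5% of 32851 RefSeq promoters, so its presence sets neither gene apart. The Mycn window also held 3 matches, 2 of them overlapping, to E2F-type letters (TTTCCCGC, TTTGGCGC, TTTCGCGC or TTTGGCGG, either strand), letters found in 2.37% of promoters. They lie in the stretch from 187 to 157 bases before the RefSeq start, written here with the matches in capitals.
Mycn E2F-type matches: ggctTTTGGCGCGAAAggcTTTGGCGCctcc
The Cdkn1b window held no E2F-type match and 3 CCAAT boxes, a motif of 5 letters present in 37.4% of promoters. Neither window held the E-box CACGTG, present in 7.15%. These are matches of letters and no evidence of binding.

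The D-type cyclins are the growth-factor-responsive cyclins of G1. Ccnd3 (ENSMUSG00000034165, chromosome 17, 47505051 to 47599691, plus strand, here and below on GRCm38 with the GENCODE M21 annotation) was the main D-type transcript in every library. Per kilobase of median transcript length it made up 89.8 to 91.0% of the summed D-type level in Klf5-overexpressing ESCs and 89.3 to 90.2% in GFP ESCs. In embryos it made up 90.4 to 99.0% in the Klf5 siRNA group and 96.1 to 99.6% in the scramble group. With the longest transcript in place of the median its lowest share in any library was 83.5%. Ccnd3 had 881 and 876 CPM in Klf5-overexpressing ESCs, against 737 and 714 CPM in GFP ESCs. The log2 difference of 0.28 ± 0.12 (SE) did not pass over all genes (edgeR adjusted p = 0.214). In embryos Ccnd3 ranged from 107 to 193 CPM with a median of 130 in the Klf5 siRNA group, and from 72.9 to 220 CPM with a median of 128 in the scramble group. The fitted log2 difference was 0.07 ± 0.24, with full overlap of the groups (edgeR adjusted p = 0.870).

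Ccnd1 (ENSMUSG00000070348, chromosome 7, 144929931 to 144939925, minus strand) had 154 and 121 CPM in Klf5-overexpressing ESCs, against 109 and 121 CPM in GFP ESCs (log2 difference 0.25 ± 0.14, edgeR adjusted p = 0.326). In embryos it was low: the Klf5 siRNA embryos ranged from 0 to 4.80 CPM with a median of 0.814, and the scramble embryos from 0 to 3.04 CPM with a median of 1.27. Klf5 siRNA embryos 4 and 5 had no Ccnd1 count, which allows at most 0.168 and 0.202 CPM at the depth of those libraries (3 counts, counting error only). Ccnd1 shares 23.4% of its exonic bases with LTO1 on the opposite strand, which rose 2.22-fold in Klf5 siRNA embryos (edgeR adjusted p = 0.00332), and no source used here says whether the authors' counting used strand.

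Ccnd2 (ENSMUSG00000000184, chromosome 6, 127125162 to 127152193, minus strand) had 25.2 and 26.7 CPM in Klf5-overexpressing ESCs and 26.4 and 25.9 CPM in GFP cells, with overlapping groups (log2 difference -0.01 ± 0.13, edgeR adjusted p = 0.974). In embryos it ranged from 0.931 to 13.7 CPM with a median of 1.94 in the Klf5 siRNA group, and from 0.115 to 2.35 CPM with a median of 0.697 in the scramble group. All 6 Klf5 siRNA embryos lay above the scramble mean of 0.927 CPM, embryo 6 barely so at 0.931 CPM. Scramble embryos 2 and 7, at 2.18 and 2.35 CPM, lay above Klf5 siRNA embryos 1, 3, 4 and 6. The log2 difference of 2.01 ± 0.73 just missed the threshold in edgeR (adjusted p = 0.0594) and passed in DESeq2 (adjusted p = 0.0206). In edgeR it also passed without scramble embryo 2 or 7, and with an offset for the longest transcript length, added after the data were seen. Klf5 siRNA embryo 5, with 13.7 CPM, carried most of the difference: without that embryo the log2 difference was 0.88 (edgeR adjusted p = 0.446). That embryo also held the highest sum of fibroblast markers among the embryos, 22.4 CPM against 0.993 to 7.50 CPM in the other Klf5 siRNA embryos, 21.9 CPM of it from Thy1, while Col1a2, Col6a1, Col6a2, Lum, Dcn and Fbn1 were at 0 in all 6. The part of this in the Ccnd2 value was not tested.

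**Figure D2:**
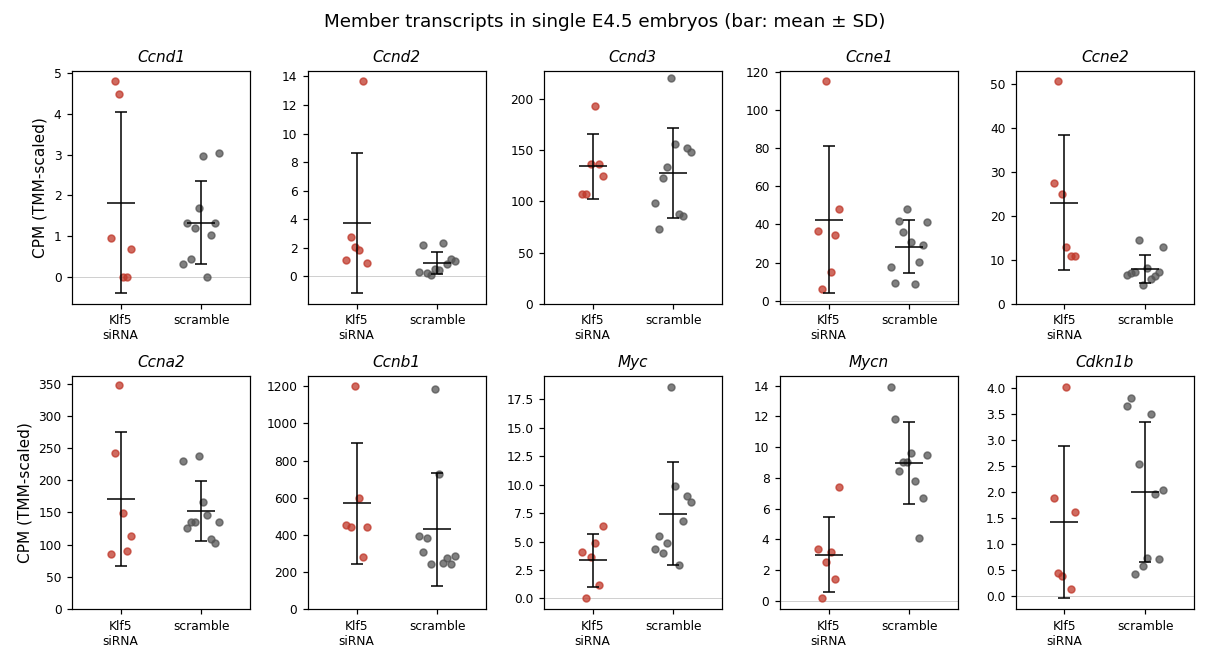
Each panel gives 1 gene in CPM on a linear axis, with a point per embryo (6 Klf5 siRNA, 10 scramble) and black bars for the mean ± SD. Ccne2 in the Klf5 siRNA embryos sits between 10.8 and 50.7 CPM and Mycn between 0.146 and 7.39 CPM, and the Ccnd2 panel shows the Klf5 siRNA embryo at 13.7 CPM apart from the other 15.

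The E-type cyclins bring cells into S phase with Cdk2, and Ccne2 but not Ccne1 passed the test in embryos. Ccne2 (ENSMUSG00000028212, chromosome 4, 11191351 to 11204779, plus strand) ranged from 10.8 to 50.7 CPM with a median of 19.0 in Klf5 siRNA embryos, and from 4.19 to 14.5 CPM with a median of 7.01 in scramble embryos. All 6 Klf5 siRNA embryos lay above the scramble mean, and embryos 1, 2 and 3, at 27.4, 50.7 and 25.0 CPM, lay above every scramble embryo. The means were 23.0 ± 15.4 CPM in Klf5 siRNA embryos and 7.93 ± 3.21 CPM in scramble embryos (SD, n = 6 and 10), a log2 difference of 1.53 ± 0.36 (edgeR adjusted p = 0.00530). Over 27 alternative settings the difference lay between 1.14 and 1.91, and the call was lost in 1 of them (adjusted p = 0.0965). It held without any single one of the 16 embryos (adjusted p up to 0.0273). Ccne2 shares 17.4% of its exonic bases with Ints8 on the opposite strand, and Ints8 had 48.0 ± 38.3 CPM in Klf5 siRNA embryos and 45.9 ± 13.8 CPM in scramble embryos (SD, n = 6 and 10; edgeR adjusted p = 0.914). In ESCs Ccne2 was low, with 5.68 and 3.75 CPM in Klf5-overexpressing cells and 6.40 and 5.61 CPM in GFP cells (log2 difference -0.35 ± 0.26, edgeR adjusted p = 0.462).

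Ccne1 (ENSMUSG00000002068, chromosome 7, 38097984 to 38107534, minus strand) varied widely among Klf5 siRNA embryos. It ranged from 6.26 to 115 CPM with a median of 35.4 in that group, and from 8.81 to 48.0 CPM with a median of 29.9 in scramble embryos. Embryo 2, the lowest for Ccne1, was the highest for Ccne2, and embryo 3 was the highest for Ccne1. The log2 difference of 0.59 ± 0.47 did not pass (edgeR adjusted p = 0.410). Ccne1 had 99.1 and 72.7 CPM in Klf5-overexpressing ESCs, against 74.6 and 82.5 CPM in GFP ESCs, with overlapping groups (edgeR adjusted p = 0.672).

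Ccna2 and Ccnb1, the cyclins of S phase to mitosis, were abundant in both systems. Ccna2 (ENSMUSG00000027715, chromosome 3, 36564865 to 36572150, minus strand) had 142 and 140 CPM in Klf5-overexpressing ESCs, against 92.4 and 119 CPM in GFP ESCs. The log2 difference of 0.42 ± 0.14 did not pass (edgeR adjusted p = 0.138). Ccnb1 (ENSMUSG00000041431, chromosome 13, 100778650 to 100786570, minus strand) had 127 and 103 CPM in Klf5-overexpressing ESCs and 115 and 139 CPM in GFP ESCs (edgeR adjusted p = 0.615).

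In embryos Ccna2 ranged from 84.8 to 348 CPM with a median of 131 in the Klf5 siRNA group, and from 102 to 237 CPM with a median of 135 in the scramble group (log2 difference 0.17 ± 0.30, edgeR adjusted p = 0.731). Ccnb1 ranged from 283 to 1201 CPM with a median of 448 in Klf5 siRNA embryos, and from 242 to 1184 CPM with a median of 295 in scramble embryos (log2 difference 0.41 ± 0.37, edgeR adjusted p = 0.474). The high ends were single embryos: Klf5 siRNA embryo 3 was the highest of its group for Ccne1, Ccna2 and Ccnb1, and scramble embryos 5 and 6 had 1184 and 725 CPM of Ccnb1. Those 2 scramble embryos also had the lowest mitochondrial shares of their group (4.34 and 5.48%) and the highest trophectoderm sums. Without them, an alternative added after the data were seen, Ccnb1 was higher in Klf5 siRNA embryos by 0.88 on the log2 scale (edgeR adjusted p = 0.0266).

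Cdkn1b (ENSMUSG00000003031, chromosome 6, 134920401 to 134925513, plus strand) encodes p27, which restrains cyclin E and cyclin A complexes of Cdk2. It had 70.3 and 68.2 CPM in Klf5-overexpressing ESCs, against 45.9 and 42.6 CPM in GFP ESCs. The groups lay well apart, with a log2 difference of 0.65 ± 0.12 (edgeR adjusted p = 0.0412). The difference stayed between 0.59 and 0.70 over 12 alternative settings, but the call was lost in 5. Among these were the fits without GFP library 1 (adjusted p = 0.210), without GFP library 2 (adjusted p = 0.137) and without Klf5 library 1 (adjusted p = 0.0507). DESeq2 gave an adjusted p of 0.000243. Fibroblast markers, which feeders express, summed to 1268 and 1271 CPM in Klf5-overexpressing ESCs and 720 and 907 CPM in GFP ESCs. Of 11 tested 1 was called higher, where 1.67% of all genes tested were called higher and 1.11% lower. Their median log2 difference was 0.39, 6 had an unadjusted edgeR p under 0.05, and DESeq2 called 4. Primitive endoderm markers summed to 1221 and 3401 CPM in Klf5-overexpressing ESCs and 1108 and 757 CPM in GFP ESCs, with 4 of 12 called higher. Their median log2 difference was 2.22, 11 of the 12 had an unadjusted edgeR p under 0.05, and DESeq2 called 8. Trophectoderm markers summed to 351 and 757 CPM in Klf5-overexpressing ESCs and 1967 and 959 CPM in GFP ESCs. Their median log2 difference over the 12 was -0.71. None of the 12 was called by edgeR, 5 had an unadjusted p under 0.05, and DESeq2 called 4. The part of these in the Cdkn1b value was not tested.

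In embryos Cdkn1b was at the lower end of the 10 genes, from 0.135 to 4.03 CPM with a median of 1.03 in the Klf5 siRNA group and from 0.429 to 3.81 CPM with a median of 2.00 in the scramble group (log2 difference -0.49 ± 0.75, edgeR adjusted p = 0.690). The standard error there is larger than the difference seen in ESCs, so a change of that size was not detectable at these counts.

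**Figure D3:**
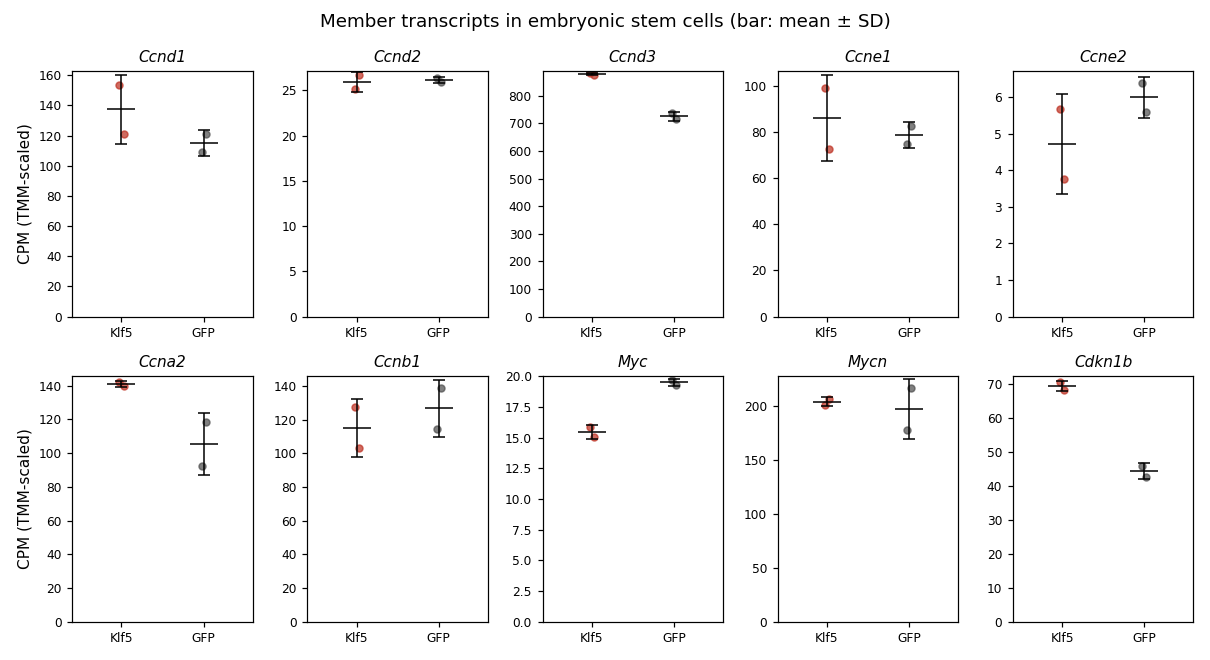
Each panel gives 1 gene in CPM on a linear axis, with a point per ESC library (2 Klf5-overexpressing, 2 GFP) and black bars for the mean ± SD. The Cdkn1b points at 70.3 and 68.2 CPM in Klf5-overexpressing cells lie above those at 45.9 and 42.6 CPM in GFP cells, and no other gene shown passed the test.

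Mycn and Myc encode related bHLH factors that share the partner Max. Mycn (ENSMUSG00000037169, chromosome 12, 12936093 to 12941914, minus strand) ranged from 0.146 to 7.39 CPM with a median of 2.85 in Klf5 siRNA embryos, and from 4.06 to 13.9 CPM with a median of 9.05 in scramble embryos. The 0.146 CPM stands for 2 counts in Klf5 siRNA embryo 2, below the 0.218 CPM that 3 counts make in that library. All 6 Klf5 siRNA embryos lay below the scramble mean of 8.99 CPM, and 5 of the 6, all but embryo 6, lay below every scramble embryo. The means were 3.00 ± 2.46 CPM in Klf5 siRNA embryos and 8.99 ± 2.67 CPM in scramble embryos (SD, n = 6 and 10), a log2 difference of -1.58 ± 0.52 (edgeR adjusted p = 0.0370). The sign held in 27 alternative settings, with values between -2.20 and -1.21, but the call was lost in 15 of them. These include leaving out 8 of the 16 embryos one at a time (scramble 1, 2, 4 and 10 and Klf5 siRNA 1, 3, 4 and 5, with adjusted p up to 0.0822), among them Klf5 siRNA embryo 1, whose Klf5 went against its label (-1.61, adjusted p = 0.0581). With an offset fitted per library to the trend over transcript length the value was -1.21 (adjusted p = 0.107), and with the mitochondrial percent as a covariate -1.78 (adjusted p = 0.0937). In ESCs Mycn had 201 and 206 CPM in Klf5-overexpressing cells and 177 and 217 CPM in GFP cells, with overlapping groups (log2 difference 0.05 ± 0.13, edgeR adjusted p = 0.852).

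Myc (ENSMUSG00000022346, chromosome 15, 61985391 to 61990374, plus strand) lay in the same direction in embryos without passing. It ranged from 0 to 6.33 CPM with a median of 3.83 in Klf5 siRNA embryos, and from 2.96 to 18.6 CPM with a median of 6.15 in scramble embryos. All 6 Klf5 siRNA embryos lay below the scramble mean of 7.46 CPM, which includes scramble embryo 5 at 18.6 CPM. Klf5 siRNA embryo 6, at 6.33 CPM, lay above the scramble median. The log2 difference was -1.16 ± 0.65 (edgeR adjusted p = 0.219). With the mitochondrial percent as a covariate it was -2.48 (adjusted p = 0.0317). Klf5 siRNA embryo 2 held no Myc count and the lowest Mycn, and it also had the lowest trophectoderm sum of all embryos, 468 CPM. In ESCs Myc had 15.9 and 15.0 CPM in Klf5-overexpressing cells and 19.7 and 19.3 CPM in GFP cells (log2 difference -0.33 ± 0.14, edgeR adjusted p = 0.211).

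Ratios of a pair of these genes within the same library depend little on library scaling. 6 were compared between Klf5 siRNA and scramble embryos with an exact two-sided permutation test over 8008 arrangements. None passed after adjustment over the 6, none had an unadjusted p under 0.05, and none passed in any alternative. The smallest p was for Ccnd2 to Ccnd3, whose mean log2 ratio was -5.49 ± 1.20 in Klf5 siRNA embryos, against -6.60 ± 1.08 in the scramble group (SD, n = 6 and 10, exact permutation p = 0.0742, adjusted 0.288). All 6 Klf5 siRNA embryos lay above the scramble mean, but scramble embryos 2 and 7, at -4.78 and -4.95, lay above all of them except embryo 5. Mycn to Myc averaged -0.07 ± 0.39 in Klf5 siRNA embryos, against 0.37 ± 0.89 in the scramble group (exact permutation p = 0.269, adjusted 0.369). All 6 Klf5 siRNA embryos lay below the scramble mean for it, but a difference between the Myc genes was not shown. Ccne1 to Ccne2 averaged 0.60 ± 1.92 in Klf5 siRNA embryos, against 1.66 ± 0.86 in the scramble group (exact permutation p = 0.144, adjusted 0.288). A difference between the E-type cyclins was therefore not shown either, and Klf5 siRNA embryo 2, at -2.92, lay far below the others. Ccnb1 to Ccna2, Cdkn1b to the summed D-type cyclins and Ccnd1 to Ccnd3 differed by 0.45, -0.64 and -0.18, with exact permutation p of 0.119, 0.308 and 0.773 (adjusted 0.288, 0.369 and 0.773). With 2 libraries against 2 in ESCs no permutation test can reach 0.05. There Ccnb1 to Ccna2 was -0.30 ± 0.19 in Klf5-overexpressing cells and 0.27 ± 0.06 in GFP cells, and Cdkn1b to the summed D-type cyclins was -3.90 ± 0.004 in Klf5-overexpressing cells and -4.28 ± 0.06 in GFP cells (SD, n = 2 each). The remaining ESC ratios, as Klf5-overexpressing minus GFP, differed by 0.45 for Ccne1 to Ccne2 and 0.38 for Mycn to Myc. For Ccnd2 to Ccnd3 the value was -0.29 and for Ccnd1 to Ccnd3 -0.03.

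**Figure D4:**
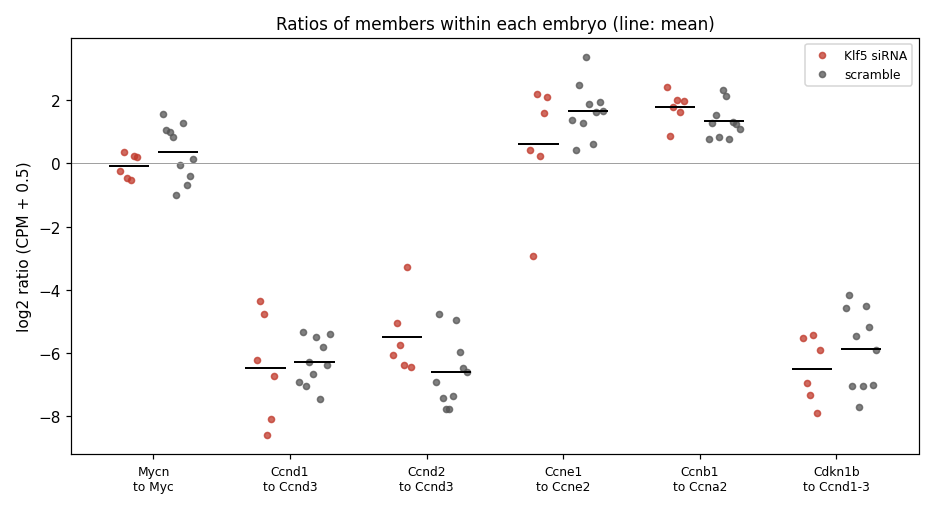
Log2 ratios of gene pairs within each embryo, computed from CPM + 0.5, with a point per embryo (6 Klf5 siRNA in red to the left, 10 scramble in grey to the right) and a line for the mean. The groups overlap for all 6 ratios, and the Klf5 siRNA embryo at -2.92 stands apart for Ccne1 to Ccne2.

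Levels were compared between genes as CPM per kilobase of transcript. In both ESC groups Ccnd3 was highest whichever length was used, at 1030 ± 3.91 in Klf5-overexpressing and 851 ± 19.1 in GFP cells per kilobase of median length (SD, n = 2 each). Ccne1, Ccnb1, Mycn, Ccna2 and Ccnd1 followed in an order that changed with the length chosen, and Ccne2, Myc, Ccnd2 and Cdkn1b were the lowest 4. In embryos Ccnb1 was highest under both lengths, at 482 ± 275 in the Klf5 siRNA group and 363 ± 256 in the scramble group (SD, n = 6 and 10, median length). Ccnd3 and Ccna2 came next, in an order that changed with the length, followed by Ccne1. Cdkn1b, Ccnd1 and Ccnd2 were the lowest 3 in scramble embryos, and neighbours among them did not differ beyond their spread. In Klf5 siRNA embryos neighbours among Ccnd3, Ccna2, Ccne1 and Ccne2 did not differ beyond their spread. Embryos and ESCs were prepared with different kits and were not tested against each other.

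Other genes of the pathway were read from 10 lists of 105 genes, of which 96 were tested in embryos: 12 rose and 15 fell in Klf5 siRNA embryos, against 12.0% and 7.74% of all genes. Of 6 other cyclins tested 1 rose and 1 fell. Ccng1, a p53-responsive cyclin, rose 3.06-fold to 289 ± 112 CPM in Klf5 siRNA embryos, against 94.4 ± 26.8 CPM in scramble embryos (SD, n = 6 and 10; edgeR adjusted p = 0.000265). Ccnf, a cyclin-like ubiquitin ligase subunit, fell 1.73-fold (adjusted p = 0.0271), and 1 of 7 genes in the kinase list was called, Cdk1, the mitotic kinase, which rose 1.85-fold (adjusted p = 0.00538). The Ccnf and Cdk1 calls were each lost in 4 of 27 alternatives (adjusted p up to 0.276 for Ccnf and 0.147 for Cdk1). Of 6 other CDK inhibitors tested 2 rose. Cdkn1a, the p53 target that encodes p21, had 378 ± 181 CPM in Klf5 siRNA embryos and 56.9 ± 28.4 CPM in scramble embryos, a 6.64-fold rise (adjusted p = 5.25e-05), with the lowest Klf5 siRNA embryo at 210 CPM above the highest scramble embryo at 110 CPM. Cdkn3, a phosphatase of CDKs, rose 2.09-fold (adjusted p = 0.0231). The Cdkn3 call was lost in 7 of 27 alternatives (adjusted p up to 0.144), among them the fit without Klf5 siRNA embryo 4 (adjusted p = 0.0815).

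Of 12 genes of the Rb and E2F family 2 fell. Rbl1, a pocket protein, had 3.58 ± 1.63 CPM in Klf5 siRNA embryos and 12.3 ± 2.19 CPM in scramble embryos (3.42-fold, edgeR adjusted p = 0.00108), and E2f5, an E2F of the repressor class, fell 2.71-fold (adjusted p = 0.0309). The E2f5 call was lost in 10 of 27 alternatives. With the mitochondrial percent as a covariate the E2f5 value was -0.60 (adjusted p = 0.491), and the call was also lost without scramble embryo 3 or without Klf5 siRNA embryo 1, 4, 5 or 6 (adjusted p of 0.0563 to 0.065). Of 5 genes of CDK phosphorylation 1 fell, Wee1, the kinase that holds Cdk1 inactive, by 3.61-fold to 10.8 ± 3.70 CPM in Klf5 siRNA embryos, against 39.1 ± 15.0 CPM in scramble embryos (adjusted p = 0.000779). In the degradation list 3 of 11 rose: the CDK-binding subunits Cks1b (2.21-fold, adjusted p = 0.00118) and Cks2 (2.17-fold, adjusted p = 0.0258) and Ube2c, a ubiquitin-conjugating enzyme of the anaphase-promoting complex (2.16-fold, adjusted p = 0.00241). The Cks2 call was lost in 7 of 27 alternatives (adjusted p up to 0.457), among them the fits without Klf5 siRNA embryo 1 or 2 (adjusted p = 0.0509 and 0.0729).

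Of 12 S phase genes 5 fell and none rose. They included the helicase subunits Mcm2 (1.97-fold, edgeR adjusted p = 0.00217) and Mcm3 (2.04-fold, adjusted p = 0.0128) and the licensing factor Cdt1 (2.09-fold, adjusted p = 0.00233), and the median log2 fold change of the 12 was -0.80, beside -0.01 over all genes tested. Of 14 G2/M genes 4 fell and 1 rose. Bub1, a spindle checkpoint kinase, fell 2.65-fold (adjusted p = 0.00397), Plk1, a mitotic kinase, fell 2.05-fold (adjusted p = 0.0103), and Birc5, which encodes survivin, rose 2.58-fold to 1024 ± 166 CPM in Klf5 siRNA embryos, against 397 ± 112 CPM in scramble embryos (adjusted p = 0.000261).

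Around the Myc genes, Max, the shared partner, fell 2.23-fold (edgeR adjusted p = 0.0355) and Mlx, a Max-like factor, rose 2.85-fold (adjusted p = 0.00111). The Max call was lost in 7 of 27 alternatives (adjusted p up to 0.215). Among these were the fits without scramble embryo 1 or 2 or Klf5 siRNA embryo 5 or 6 (adjusted p of 0.0505 to 0.066). Mycl, the third Myc gene, was called higher, but on Klf5 siRNA embryo 1 with 121 CPM. The other Klf5 siRNA embryos were at or under 3.71 CPM, and without embryo 1 the log2 difference was -0.44 (adjusted p = 0.822). Of 14 Myc target genes tested 2 rose and 1 fell: Nme1, a nucleoside diphosphate kinase (2.34-fold, adjusted p = 0.000868), Eif4e, the cap-binding translation factor (2.09-fold, adjusted p = 0.00538), and Bop1, a ribosome biogenesis factor (1.81-fold lower, adjusted p = 0.0415). Their median log2 fold change was 0.04. The Eif4e call was lost in 3 of 27 alternatives (adjusted p up to 0.105). The Bop1 call was lost in 16 of 27 alternatives (adjusted p up to 0.257). Among these were the fits without any 1 of 10 embryos (scramble 2, 3, 4, 5 and 10, and Klf5 siRNA 1, 2, 4, 5 and 6), with adjusted p of 0.0561 to 0.0891.

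Transcript length moved with the direction of the differences in embryos. Over all genes tested the median log2 difference was 0.88 in the tenth of genes with the shortest transcripts (by their longest isoform) and -0.34 in the tenth with the longest, and the called pathway genes had a median longest transcript of 2686 bases where they rose and 3421 bases where they fell, beside 3589 bases where they were not called, so the called genes that fell were not longer than the uncalled ones. Among the 10 genes the order differed, with 3006 bases for Ccne2, 2674 bases for Mycn and a median of 3352.5 bases for the uncalled 8. With the length offset named above for Mycn, 25 pathway genes were called (10 higher, 15 lower), 24 of them among the 27. With the longest transcript in that offset, added after the data were seen, 21 were called (10 higher, 11 lower), 19 of them among the 27. Cks1b and Cks2, short transcripts, were not called with that second offset (log2 differences 0.42 and 0.36, adjusted p = 0.160 and 0.457), whereas Cdkn1a, Ccng1, Wee1, Nme1 and Birc5 passed in all 27 alternative settings. Of the other pathway genes named here, Rbl1, Cks1b, Ube2c, Cdt1 and Bub1 lost their call in 1 of the 27, and Mlx, Mcm2, Mcm3 and Plk1 in 2.

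**Figure D5:**
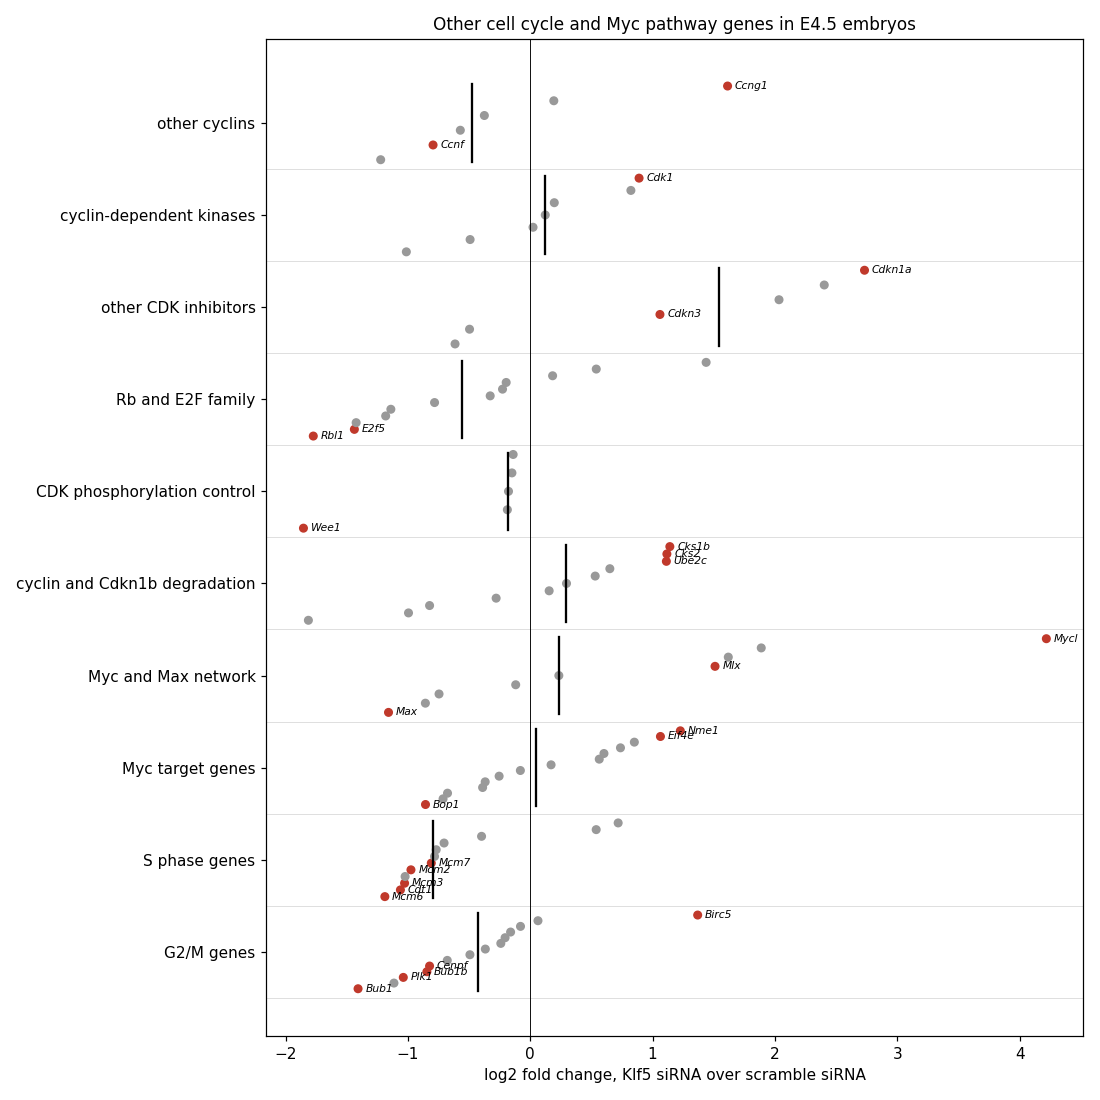
Log2 fold changes of the pathway genes tested in embryos (Klf5 siRNA over scramble), a point per gene, grouped by list from top to bottom, with a vertical black bar at each list's median; red points with a name have an adjusted p under 0.05. The S phase genes lie mostly below 0 with a median of -0.80, and the rising genes are spread over several lists, led by Cdkn1a at 2.73 and by Mycl at 4.22, which rests on 1 embryo.

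In ESCs 1 of 104 pathway genes tested was called, a fall, where 1.67% of all genes were called higher and 1.11% lower. That is no more than the share among all genes. The called gene was Nop56, a ribosome biogenesis factor and Myc target. It had 173 ± 6.73 CPM in Klf5-overexpressing cells and 266 ± 24.5 CPM in GFP cells (SD, n = 2 each; log2 difference -0.62, edgeR adjusted p = 0.0451), and the call was lost in 5 of 12 alternatives, among them the fits without GFP library 1 or 2 or Klf5 library 1 (adjusted p = 0.291, 0.0786 and 0.079). The genes with the smallest p in other lists did not pass: E2f2 (log2 difference 1.34, adjusted p = 0.0601), Fzr1 (0.59, 0.0595), Mga (-0.70, 0.0588) and Ccnf (0.46, 0.0653) came closest. The count depended on the setting, with 10 pathway genes called by DESeq2 and 6 without a filter on low counts.

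The genes most like Ccne2 across the 16 embryos, after removing group means and among genes with a mean log2 CPM of at least 3, were Apobec3 (Pearson's r 0.84) and E030030I06Rik (0.79). Those most like Mycn were Baz2a (0.89) and Efhd2 (0.87). Without the 2 embryos farthest from the median the values were 0.72 and 0.68 for Ccne2 and 0.52 and 0.54 for Mycn. All points share libraries and depth, so these are descriptions of likeness only.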

How the data were processed

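Polyadenylated RNA was sequenced from 4 ESC and 16 single-embryo libraries, with TruSeq v2 reagents for ESCs, SMARTseq-V4 for embryos and NEBNext Ultra II for all, per the labels' protocols. The authors deposited unnormalized estimated counts (expected counts) per Ensembl gene. The submitters' processing notes name kallisto 0.46 and the mm10 build for them. The annotation, the step from transcripts to genes and the strand setting are not given in the sources used here. Of 30265 genes 29831 were matched to a GENCODE M21 symbol and 434 were not.

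Groups follow the genotype and title of each sample, and no sample was left out. Estimated counts were rounded (library totals moved by at most 0.000756%), filtered with filterByExpr (lowest count 10), TMM-scaled and tested per experiment with robust quasi-likelihood F tests in edgeR 4.0.16 (R 4.3.3), adjusted by Benjamini and Hochberg over all genes, threshold 0.05. The common biological coefficient of variation was 0.163 in ESCs and 0.739 in embryos. Standard errors were derived from the F statistic. Within-library ratios used CPM + 0.5. A count of 0 allows up to 3 counts; such limits hold for counting error alone, because reads copied by PCR are not separate molecules. The fits were tested on simulated counts that gave every gene the common coefficient of variation. Changes were placed only in genes above a set mean count, so genes near the floor were not covered.

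All 10 members were named, with up to 3 called genes of each pathway list, or else the member of smallest p, and the 2 genes most like each member called in embryos. The members and lists were chosen with earlier results of these data known. Alternatives were RLE scaling, DESeq2 1.42.0, no filter, a test against a 1.5-fold change, length offsets, the mitochondrial percent as a covariate, a pseudocount of 2 for ratios, and libraries left out. The replicate numbers as a block and crossed ESC numbers were also tried. The longest-transcript offset, the crossed numbers and the fit without scramble embryos 5 and 6 were chosen after the data were seen. RefSeq promoters (250 bases before to 50 after the start) were held for 5 of the 10 members; Ccnd1, Ccnd2, Ccne2, Ccna2 and Myc were not matched.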

Additional observations from a re-analysis of the deposited data

Results flagged for a closer look

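Dixon's test was run on the CPM of the members and named pathway genes and on the 6 ratios within the 2 embryo groups, 78 groups of values in all, and set 11 single embryos apart from their group. In Klf5 siRNA embryos these were Ccnd2 in embryo 5 (13.7 CPM, the next embryo at 2.77), Ccnd3 in embryo 4 (193 CPM, next 136), Ccnb1 in embryo 3 (1201 CPM, next 598), Ube2c in embryo 4 (1223 CPM, next 896), Mycl in embryo 1 (121 CPM, next 3.71) and Bub1 in embryo 2 (70.0 CPM, next 37.3). In scramble embryos they were Ccnb1 in embryo 5 (1184 CPM, next 725), Myc in embryo 5 (18.6 CPM, next 9.91), Cdkn3 in embryo 7 (37.4 CPM, next 23.2), E2f5 in embryo 3 (35.6 CPM, next 19.8) and Max in embryo 2 (38.1 CPM, next 22.0). All 11 were high values. By chance the test sets apart about 1 group in 20 where values are independent and normally distributed. CPM were taken on a linear scale and the groups share libraries, so the 11 cannot be set against that rate.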

How the results depend on the processing

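Of 1250 gene and ratio values under alternative settings, 1120 kept their side of the threshold, 100 lost it, 28 gained it and 2 reversed. Among the 1120, 26 differed in sign with no call on either side. The reversed values were those of Mycl in embryos, at -0.40 with the replicate block and -0.44 without Klf5 siRNA embryo 1 (4.46 at the other end of the fits without 1 embryo). In ESCs 1 member was called, against 0 with the test against a 1.5-fold change, 0 with the replicate block and 0 to 1 without 1 library. 1 ESC pathway gene was called, against 10 in DESeq2, 6 without a filter, 0 in the 1.5-fold test, 2 with either length offset, 0 with the replicate block and 0 to 6 without 1 library. Same-numbered ESC libraries deviated with a correlation of -0.11, and with crossed numbers 1 member and 11 pathway genes were called. In embryos 2 members were called, against 1 in the 1.5-fold test, 1 with the length offset, 0 with the replicate block (Ccne2 1.39, adjusted p = 0.0965; Mycn -2.20, adjusted p = 0.104), 1 in the same 12 embryos with no block, 1 without Klf5 siRNA embryos 2 and 4, and 1 to 3 without 1 embryo. With the longest-transcript offset 2 were called, Ccnd2 and Ccne2, and Mycn was not. Of embryo pathway genes 27 were called, against 10 in the 1.5-fold test, 12 with the replicate block, 18 in the same 12 embryos with no block, 31 in DESeq2, 32 without scramble embryos 5 and 6, 28 with the mitochondrial covariate (17 of them among the 27) and 23 to 29 without 1 embryo. Same-numbered embryos deviated with correlations of -0.11 to 0.11. Among the Klf5 siRNA embryos only embryo 6 was most like the scramble embryo of its own number, so the numbers were not taken as pairs. Of the 6 ratios 0 passed in any of 20 alternatives. The cause of these shifts was not tested. Cdkn1b, Ccnd1 and Ccnd2 were near the floor in several embryos, where depth limits what could be seen. The same holds for Myc and Mycn in Klf5 siRNA embryo 2, with 0 and 2 counts.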
